A study of Mus musculus with 12 samples.

Results

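The 38 genes described here encode the enzymes of cholesterol synthesis and of fatty acid synthesis, with the proteins that regulate both, in mouse liver. They were taken by symbol, in a choice made with earlier results of these data known, and they are 38 of the 18194 genes with a probe set of their own on the arrays. The list holds 6 regulators, 18 genes of the sterol branch and 14 genes of the fatty acid branch, and for each gene the probe set with the highest mean over the 12 arrays was used. All 38 had a probe set, and 37 passed the filter on low signals. The exception was Acacb, the mitochondrial acetyl-CoA carboxylase, whose signals lay between 3.56 and 38.6 in wild type and reached 121 on 1 array labelled IFNko TGFB1 KO.

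The study measured liver RNA of BALB/c mice on oligonucleotide arrays in 4 groups of 3 arrays. They were wild type mice, mice labelled TGFB KO, which lack the cytokine gene Tgfb1 (transforming growth factor beta), mice labelled IFNko TGFB1 KO, which lack Tgfb1 and the interferon gamma gene Ifng, and mice labelled INFko TGFB+, which lack Ifng and keep Tgfb1. The study's design text gives 3 mice per group for the groups it describes, and it calls the wild type mice littermates. It does not speak of the INFko TGFB+ group, so for that group the 3 arrays are known only from their labels. No source used here states how many Tgfb1 copies the INFko TGFB+ mice keep, how old any group was or which Ifng allele was bred in. The labels name no tissue or driver for either deletion. The arrays measured whole liver, so fewer cells of a type and less RNA per cell cannot be told apart.

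Liver makes cholesterol from acetyl-CoA through mevalonate, squalene and lanosterol, and it makes fatty acids from the same precursor through malonyl-CoA, followed by elongation and desaturation. Transcription factors of the SREBP family switch on both branches. The escort protein Scap carries them from the endoplasmic reticulum to the Golgi for cleavage when sterols are low, and the Insig proteins hold Scap back when sterols are high. Srebf1 encodes the family member that acts mainly on fatty acid genes in liver, Srebf2 the one that acts mainly on sterol genes, and Mlxipl encodes ChREBP, a factor that answers to carbohydrate.

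The promoter windows of 3 of these genes are shown because the sterol pathway genes are known targets of SREBP through the sterol regulatory element, and because these 3 genes were all lower in the mice without Tgfb1. Of the 3, only Hmgcs1 is a sterol gene. Hmgcs1 and Mlxipl were the only members whose windows hold that element, and for Mlxipl the window with the match is shown. Each window is the 250 bases before an annotated start in RefSeq on the mouse build GRCm38.p6, written 5′ to 3′ on the gene's strand. Capitals mark matches on either strand to the element TCACNCCAC (its reverse complement is GTGGNGTGA), to the E-box CACGTG and to the CCAAT box (ATTGG on the other strand). The Hmgcs1 window is chr13:119690101-119690350 on the plus strand, the Mlxipl window is that of the second of 2 listed starts, chr5:135106641-135106890 on the plus strand, and the Fasn window is chr11:120824548-120824797 on the minus strand.
Hmgcs1: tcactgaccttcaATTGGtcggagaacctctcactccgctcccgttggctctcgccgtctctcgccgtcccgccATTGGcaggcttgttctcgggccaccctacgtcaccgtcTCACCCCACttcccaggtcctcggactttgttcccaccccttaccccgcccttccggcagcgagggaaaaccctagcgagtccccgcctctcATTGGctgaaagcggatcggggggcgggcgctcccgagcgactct
Mlxipl: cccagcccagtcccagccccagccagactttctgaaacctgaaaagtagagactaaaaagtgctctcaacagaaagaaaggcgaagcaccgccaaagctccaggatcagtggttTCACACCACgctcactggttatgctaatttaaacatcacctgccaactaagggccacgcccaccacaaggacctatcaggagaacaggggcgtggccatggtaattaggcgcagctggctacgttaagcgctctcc
Fasn: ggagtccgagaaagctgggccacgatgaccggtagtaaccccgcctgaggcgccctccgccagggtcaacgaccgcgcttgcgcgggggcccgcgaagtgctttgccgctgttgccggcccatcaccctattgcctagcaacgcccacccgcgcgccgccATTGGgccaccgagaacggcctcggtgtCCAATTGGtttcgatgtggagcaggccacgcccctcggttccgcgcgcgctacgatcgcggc
The Hmgcs1 window holds the sterol regulatory element 137 bases before the start and CCAAT boxes at 237, 176 and 45 bases. The Mlxipl window holds the element at 136 bases, and the window of its other start, not shown, holds a CCAAT box at 173 bases and an E-box at 98. The Fasn window holds no match to TCACNCCAC, and its CCAAT boxes lie at 90, 62 and 59 bases, the last 2 of which overlap. Over the 32 members with a window, TCACNCCAC was found in 2 (6.25%, Hmgcs1 and Mlxipl), against 1.22% of 27025 genes. CACGTG was found in 7 members (21.9%), against 6.86% of genes, and CCAAT in 27 (84.4%), against 37.5% of genes. A match describes the letters only.

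The arrays were first checked against their labels. Tgfb1 signals were 110 to 455 in wild type and 163 to 221 in INFko TGFB+, and 45.5 to 87.6 in TGFB KO and 24.9 to 52.1 in IFNko TGFB1 KO, so the groups labelled as lacking Tgfb1 lay lower. Ifng signals were 5.95 to 25.9 in wild type, 85.9 to 202 in TGFB KO, 1.06 to 7.56 in INFko TGFB+ and 44.6 to 83.9 in IFNko TGFB1 KO. The arrays labelled IFNko TGFB1 KO thus had Ifng signal above that of wild type, and since it is not known whether the probe set lies in the deleted part, this checks nothing about that label. Xist was high on 1 array in each group, and the labels give no sex. The first IFNko TGFB1 KO array stood apart, with a median signal of 61.3 against 33.8 to 42.6 on the other 11 arrays and rank correlations of 0.754 to 0.809 with them, where the others had 0.816 to 0.912 among themselves. Calls lost without 1 array are given with the range of the adjusted p without it.

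Many genes of cholesterol and fatty acid synthesis were lower in the livers without Tgfb1, in both Ifng backgrounds, and Sqle, Elovl6 and Scd1 were the 3 that rose in at least 1 of them. Against wild type, 18 of 37 genes were lower and 2 higher in TGFB KO at an adjusted p under 0.05 (limma, Benjamini-Hochberg over 12760 genes), where 11.9% of all genes were lower and 12.2% higher (24.1% in either direction). Against INFko TGFB+, 20 were lower and 2 higher in the arrays labelled IFNko TGFB1 KO, where 13.1% of all genes were lower and 12.7% higher (25.8% in either direction). The 2 comparisons share no arrays but use the same estimate of each gene's spread. In both, 17 of the 37 genes were lower, against 7.54% of all genes. The median log2 fold change of the members was -0.84 in the first comparison and -0.88 in the second, and that of all genes was -0.06 and -0.01. With each array centred on its median in place of quantile normalization, 16 and 22 members were lower and 2 and 0 higher, and the calls over all genes moved from 1524 lower of 3077 to 892 of 2339 in the first comparison and from 1673 of 3291 to 1863 of 2850 in the second, where the median of all genes was then -0.15. Without the first IFNko TGFB1 KO array 19 members were lower in the second comparison, and without the third wild type array 15 in the first. Fold changes here are differences of group means of log2(signal + 16) after quantile normalization, which understates the change of dim genes. Each is given with the standard error (SE) of the limma fit. That SE rests on a spread per gene estimated over all 4 groups of 3 arrays and moderated toward that of other genes. A gene therefore has the same SE in both comparisons, and arrays outside a comparison contribute to it.

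**Figure D1:**
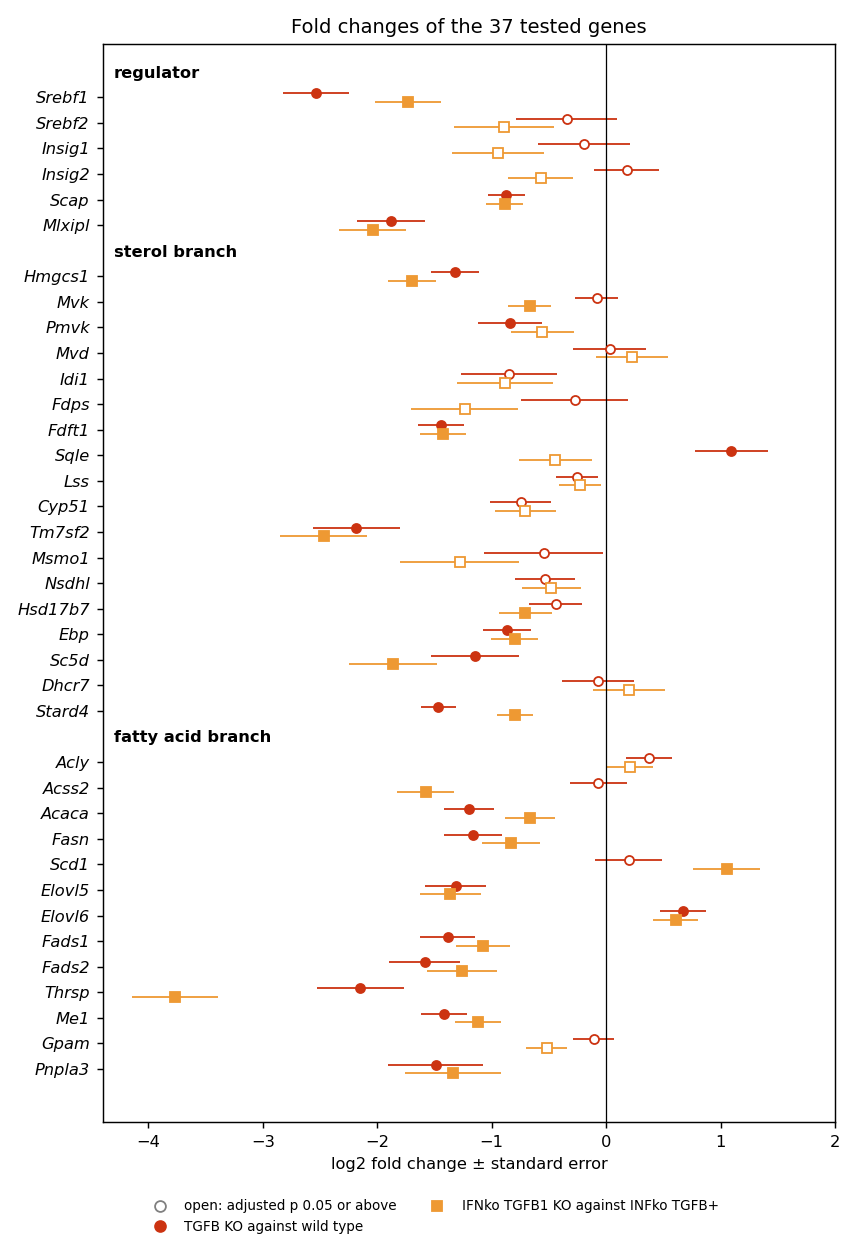
Log2 fold change with its standard error for each of the 37 tested genes (vertical axis, by branch) in TGFB KO against wild type (circles) and IFNko TGFB1 KO against INFko TGFB+ (squares), filled where the adjusted p was under 0.05. The standard errors use a spread estimated over all 4 groups. Most points lie left of 0, from Thrsp at -3.77 to Sqle at 1.09, and 17 genes have both points filled on the left.

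Of the 6 regulators, Srebf1, Mlxipl and Scap fell in both comparisons, and Srebf2, Insig1 and Insig2 did not pass the test in either. Srebf1 signals were 3560, 3007 and 3810 in wild type and 500, 495 and 684 in TGFB KO. Among the mice lacking Ifng they were 3291, 2724 and 3472 in INFko TGFB+ and 923, 515 and 1212 in IFNko TGFB1 KO. No array without Tgfb1 reached the lowest array with it. The fold change was -2.53 ± 0.29 (5.78-fold lower, adjusted p = 0.000105) and -1.73 ± 0.29 (adjusted p = 0.00151).

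Mlxipl, the carbohydrate-responsive factor, had signals of 1289, 1272 and 923 in wild type and 360, 387 and 189 in TGFB KO, and 904, 946 and 817 in INFko TGFB+ and 215, 147 and 278 in IFNko TGFB1 KO. The groups with and without Tgfb1 did not overlap in either background. The fold change was -1.88 ± 0.30 (adjusted p = 0.000918) and -2.04 ± 0.30 (adjusted p = 0.000654). Scap, the escort protein, had signals of 1035, 1245 and 1075 in wild type and 546, 601 and 648 in TGFB KO, and 1089, 1159 and 998 in INFko TGFB+ and 433, 612 and 612 in IFNko TGFB1 KO. Its change was -0.87 ± 0.16 (adjusted p = 0.00246) and -0.89 ± 0.16 (adjusted p = 0.00231), again without overlap, and with each array centred on its median instead the first adjusted p was 0.0554.

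Srebf2, the sterol branch's own factor, had signals of 287, 284 and 104 in wild type and 168, 185 and 152 in TGFB KO, and 167, 149 and 148 in INFko TGFB+ and 44.4, 151 and 116 in IFNko TGFB1 KO. The third wild type array lay below all TGFB KO arrays, and Srebf2 passed the test neither in TGFB KO, at -0.35 ± 0.44 (adjusted p = 0.623), nor against INFko TGFB+, at -0.89 ± 0.44 (adjusted p = 0.163). Insig1, one of the proteins that retain Scap and itself a known SREBP target, had signals of 300, 376 and 995 in wild type and 382, 363 and 568 in TGFB KO, and 463, 419 and 520 in INFko TGFB+ and 173, 229 and 382 in IFNko TGFB1 KO. Its highest value was the third wild type array, and the fold changes were -0.20 ± 0.40 (adjusted p = 0.773) and -0.94 ± 0.40 (adjusted p = 0.108), the second of which passed without IFNko TGFB1 KO 3 (0.0395). Insig2, the second such protein, had signals of 2706, 2249 and 2245 in wild type and 1720, 2509 and 3839 in TGFB KO, and 2226, 2215 and 2515 in INFko TGFB+ and 1404, 974 and 1870 in IFNko TGFB1 KO. The TGFB KO arrays spread on both sides of wild type, and neither fold change, 0.18 ± 0.28 (adjusted p = 0.697) or -0.57 ± 0.28 (adjusted p = 0.164), passed the test, although the second passed with median centring (0.034).

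**Figure D2:**
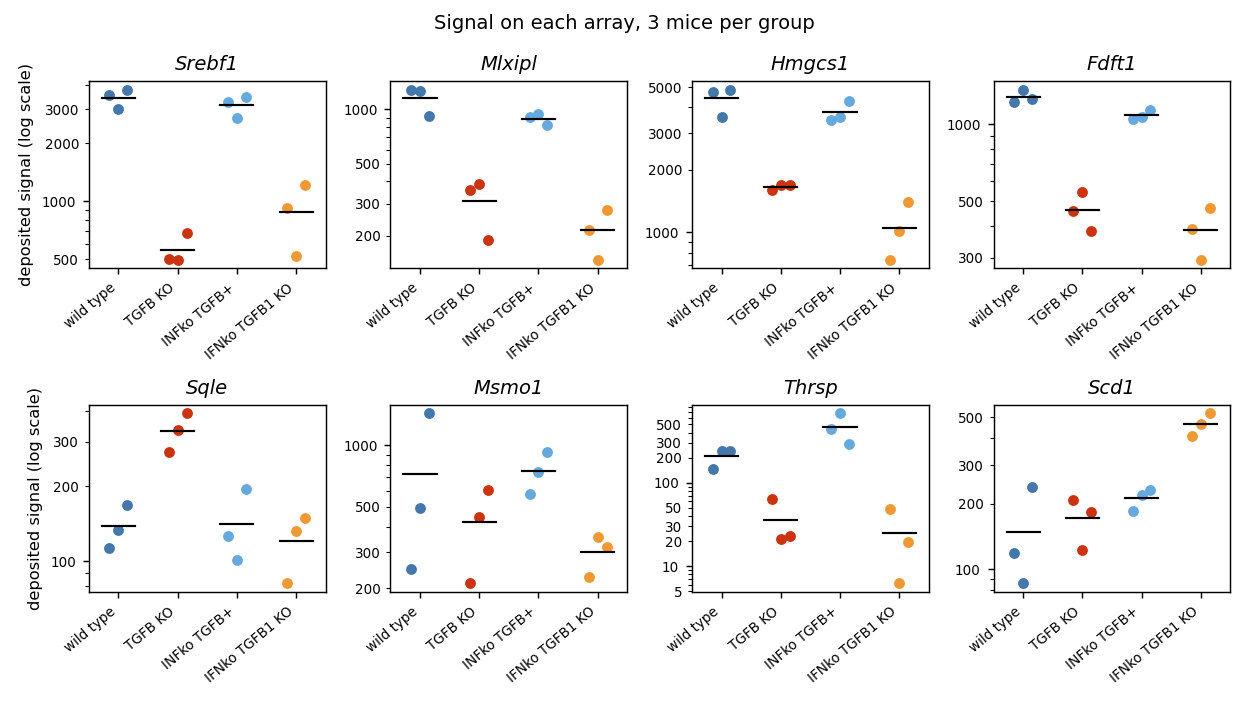
Deposited signal (vertical axis, log scale) of 8 genes on each of the 12 arrays by group, each point an array and each line the group mean. Srebf1, Mlxipl, Hmgcs1 and Fdft1 separate the groups with Tgfb1 from those without it, Sqle is highest on the 3 TGFB KO arrays (272 to 390), and the wild type arrays of Msmo1 run from 248 to 1437.

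In the sterol branch, 7 of 18 genes fell and 1 rose in TGFB KO, and 8 fell and none rose in IFNko TGFB1 KO against INFko TGFB+, with 6 lower in both. Of all genes, 11.9% fell and 12.2% rose in the first comparison, 13.1% fell and 12.7% rose in the second, and 7.54% fell in both. The 6 were Hmgcs1, Fdft1, Tm7sf2, Stard4, Sc5d and Ebp. Hmgcs1, the cytosolic HMG-CoA synthase at the start of the mevalonate pathway, had signals of 4774, 3618 and 4880 in wild type and 1603, 1700 and 1689 in TGFB KO, and 3488, 3591 and 4300 in INFko TGFB+ and 739, 1016 and 1399 in IFNko TGFB1 KO. It fell by 1.32 (SE 0.21, adjusted p = 0.000986) and by 1.69 (SE 0.21, adjusted p = 0.000263) on the log2 scale. Fdft1, the squalene synthase that commits the pathway to sterols, had signals of 1224, 1366 and 1259 in wild type and 459, 541 and 382 in TGFB KO, and 1044, 1066 and 1139 in INFko TGFB+ and 389, 295 and 471 in IFNko TGFB1 KO. Its changes were close in size, -1.44 ± 0.20 (adjusted p = 0.000419) and -1.43 ± 0.20 (adjusted p = 0.000564). For both genes all arrays without Tgfb1 lay below all arrays with it.

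Later in the branch, Tm7sf2, a sterol reductase acting after lanosterol, showed the largest falls of the 18 genes in both comparisons. Its signals were 710, 445 and 1077 in wild type and 105, 169 and 158 in TGFB KO, and 940, 954 and 1172 in INFko TGFB+ and 113, 187 and 296 in IFNko TGFB1 KO. The fold change was -2.18 ± 0.38 (adjusted p = 0.00183) and -2.47 ± 0.38 (adjusted p = 0.00099). Stard4, a carrier that moves cholesterol between membranes, was narrow within groups, at 429, 498 and 511 in wild type and 166, 172 and 159 in TGFB KO, and 446, 443 and 448 in INFko TGFB+ and 278, 224 and 265 in IFNko TGFB1 KO. It changed by -1.47 ± 0.15 (adjusted p = 5.64e-05) and -0.80 ± 0.15 (adjusted p = 0.00332).

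Sc5d, a desaturase of the last steps, had signals of 1468, 1275 and 1696 in wild type and 526, 789 and 643 in TGFB KO, and 1344, 1381 and 1475 in INFko TGFB+ and 425, 171 and 625 in IFNko TGFB1 KO. The groups did not overlap, and the fold change was -1.15 ± 0.38 (adjusted p = 0.0494) and -1.86 ± 0.38 (adjusted p = 0.00455). The first of these was lost when any 1 of the 6 arrays was left out (adjusted p 0.0646 to 0.15), with a pseudocount of 1 (0.0724) or with no filter (0.073). Ebp, the sterol isomerase, fell less, by 0.87 (SE 0.21) and 0.80 (SE 0.21) on the log2 scale, with the second adjusted p at 0.0505 without the third INFko TGFB+ array and 0.0566 when only the groups compared were fitted.

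Sqle, the squalene epoxidase that adds the first oxygen on the way to the sterols, was the 1 sterol gene that rose. Its signals were 113, 134 and 168 in wild type and 272, 335 and 390 in TGFB KO, and 126, 101 and 194 in INFko TGFB+ and 81.7, 132 and 149 in IFNko TGFB1 KO. All 3 TGFB KO arrays lay above all 9 others. The change from wild type was 1.09 ± 0.32 (adjusted p = 0.0267), with an adjusted p of 0.0657 to 0.0896 without wild type 1 or 2 or TGFB KO 2 or 3. In IFNko TGFB1 KO against INFko TGFB+ it was -0.44 ± 0.32 (adjusted p = 0.336).

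The other sterol genes were called in 1 comparison or in none. Pmvk, phosphomevalonate kinase, fell in TGFB KO (-0.84 ± 0.28, adjusted p = 0.0458), a call lost without wild type 2 or 3 or TGFB KO 2 or 3 (adjusted p 0.0564 to 0.162), with either other scaling, a pseudocount of 1, no filter or only the groups compared (0.0547 to 0.107). Mvk, mevalonate kinase, fell in IFNko TGFB1 KO against INFko TGFB+ (-0.67 ± 0.19, adjusted p = 0.0208), although the arrays overlapped and the call was lost without INFko TGFB+ 1 or 2 or IFNko TGFB1 KO 3 (adjusted p 0.063 to 0.0816), with the deposited scaling, the mean of its probe sets or only the groups compared (0.0679 to 0.254). Hsd17b7, a ketosteroid reductase of the pathway, fell there too (-0.71 ± 0.23, adjusted p = 0.0428), a call lost without any 1 of 5 of the 6 arrays, INFko TGFB+ 2 being the exception (adjusted p 0.0624 to 0.157), and with the deposited scaling, a pseudocount of 1, no filter or array weights (0.0502 to 0.0709). The remaining 8 genes, Mvd, Idi1, Fdps, Lss, Cyp51, Msmo1, Nsdhl and Dhcr7, gave no call in either comparison, with fold changes between -1.28 (Msmo1) and 0.23 (Mvd). Some passed under other settings. Cyp51 fell in TGFB KO with the 60th percentile filter, the mean of its probe sets, a variance trend or without wild type 1 (adjusted p 0.0189 to 0.0494, against 0.0623) and in the second comparison with the mean of its probe sets (0.0406, against 0.0731). In the second comparison Fdps fell with a pseudocount of 64 or the trend (0.0462 and 0.0449, against 0.074) and Msmo1 with only the groups compared (0.0161, against 0.0946). The 8 encode mevalonate diphosphate decarboxylase (Mvd), lanosterol synthase (Lss), the lanosterol demethylase (Cyp51), a sterol dehydrogenase (Nsdhl), the reductase of the last step (Dhcr7) and the 3 enzymes described next.

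Some of these uncalled genes varied widely among the wild type mice. Msmo1, a methylsterol oxidase of the steps after lanosterol, had signals of 248, 494 and 1437 in wild type and 211, 446 and 605 in TGFB KO, and 576, 740 and 925 in INFko TGFB+ and 226, 354 and 320 in IFNko TGFB1 KO. Fdps, farnesyl diphosphate synthase, had signals of 261, 397 and 948 in wild type and 272, 399 and 528 in TGFB KO, and 548, 659 and 980 in INFko TGFB+ and 168, 454 and 350 in IFNko TGFB1 KO. Idi1, the isomerase before it, had signals of 205, 281 and 661 in wild type and 114, 174 and 310 in TGFB KO, and 339, 452 and 463 in INFko TGFB+ and 170, 342 and 204 in IFNko TGFB1 KO. In each the third wild type array was the highest of its group, 5.79 times the lowest for Msmo1, 3.63 times for Fdps and 3.22 times for Idi1, whereas the ratio was 1.03 for Ebp and 1.12 for Fdft1.

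The third wild type array was the highest of its group for 13 of the 18 sterol genes, against 34.2% of all genes, and the third INFko TGFB+ array for 17 of 18, against 35.9% of all genes. The third TGFB KO array was the highest for 10 of 18, against 34.5%, and the third IFNko TGFB1 KO array for 7 of 18, against 30.1%. The median standard deviation among wild type arrays was 0.393 (log2) for the sterol genes, 0.235 for the fatty acid genes and 0.273 for all genes. Without the third wild type array, the fold change in TGFB KO was 0.09 for Msmo1, 0.20 for Fdps and 0.29 for Insig1, none past the test, and thus above 0 where the value over all arrays was below it. What set this array apart was not tested.

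**Figure D3:**
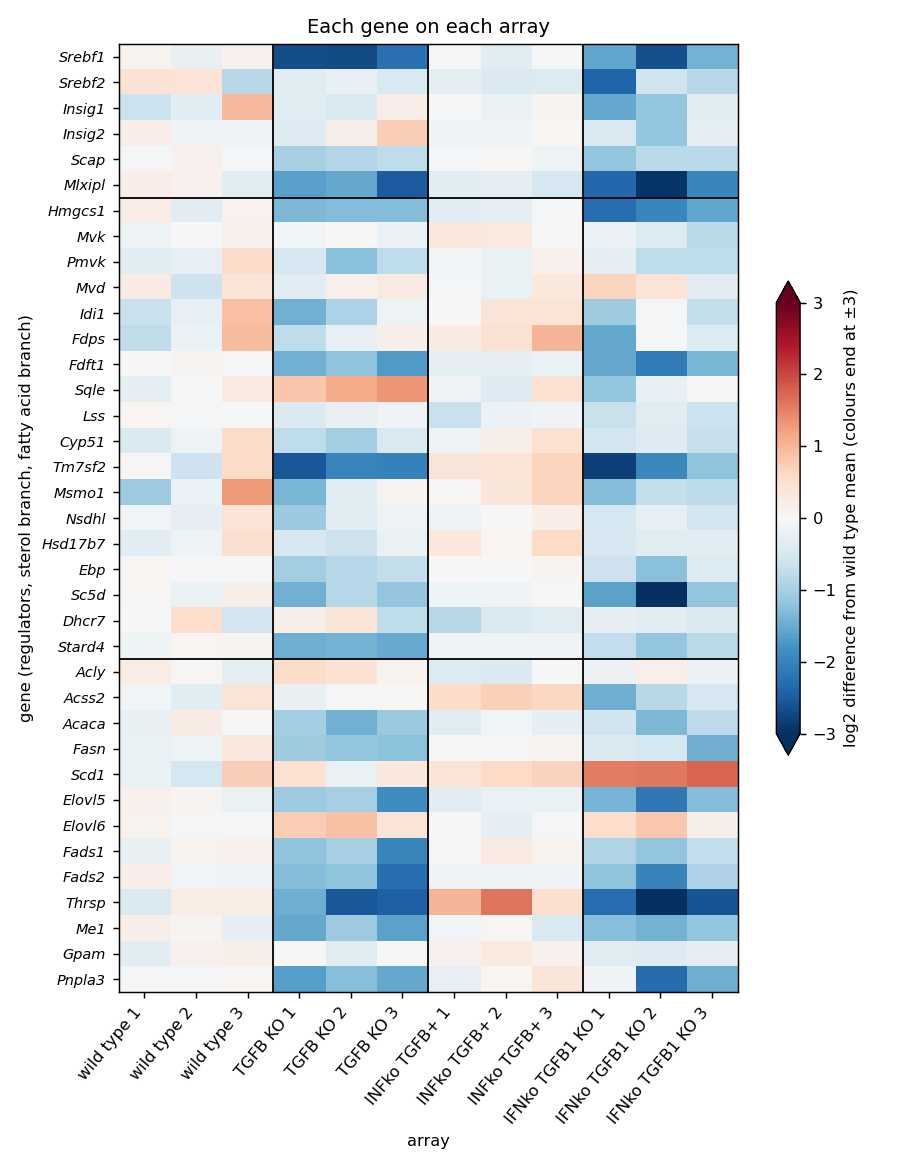
Log2 difference of each gene from its wild type mean on each of the 12 arrays (columns, 3 per group), with rows in the order regulators, sterol branch and fatty acid branch. Red is higher and blue lower, and most of the blue lies on the 6 arrays without Tgfb1, while the third wild type array is red for Msmo1, Fdps, Idi1 and Insig1.

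In the fatty acid branch, 8 of 13 tested genes fell and 1 rose in TGFB KO, and 9 fell and 2 rose in IFNko TGFB1 KO against INFko TGFB+, with 8 lower in both. The shares of all genes were 11.9% lower and 12.2% higher, 13.1% lower and 12.7% higher, and 7.54% lower in both. The 8 were Acaca, Fasn, Elovl5, Fads1, Fads2, Thrsp, Me1 and Pnpla3. Acaca, the cytosolic acetyl-CoA carboxylase, had signals of 305, 428 and 360 in wild type and 177, 126 and 160 in TGFB KO, and 278, 341 and 292 in INFko TGFB+ and 240, 149 and 206 in IFNko TGFB1 KO. The fold change was -1.20 ± 0.22 (adjusted p = 0.00234) and -0.66 ± 0.22 (adjusted p = 0.0438), and the second call was lost without any 1 of 5 arrays, IFNko TGFB1 KO 1 being the exception (adjusted p 0.0535 to 0.146), and with the deposited scaling, a pseudocount of 1, no filter, only the groups compared or array weights (0.0505 to 0.0832). Fasn, the fatty acid synthase, had signals of 307, 325 and 458 in wild type and 169, 152 and 144 in TGFB KO, and 360, 356 and 382 in INFko TGFB+ and 262, 266 and 123 in IFNko TGFB1 KO. It fell by 1.17 (SE 0.25, adjusted p = 0.00652) and by 0.83 (SE 0.25, adjusted p = 0.0321) on the log2 scale, the second lost without any 1 INFko TGFB+ array or IFNko TGFB1 KO 3 (adjusted p 0.0734 to 0.0897), with no filter (0.0528) or with only the groups compared (0.0854). The groups of both genes did not overlap.

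The enzymes that lengthen and desaturate polyunsaturated fatty acids fell together. Elovl5, an elongase, had signals of 11557, 11696 and 9420 in wild type and 5119, 5364 and 2965 in TGFB KO, and 8515, 8723 and 9423 in INFko TGFB+ and 3258, 2144 and 4198 in IFNko TGFB1 KO. Fads1, a front-end desaturase, had signals of 3857, 5099 and 5188 in wild type and 1862, 2142 and 1131 in TGFB KO, and 4723, 5301 and 5081 in INFko TGFB+ and 1948, 1788 and 2579 in IFNko TGFB1 KO. Fads2, the desaturase that starts the same pathway, had signals of 4143, 3726 and 3620 in wild type and 1460, 1558 and 749 in TGFB KO, and 3574, 3477 and 3742 in INFko TGFB+ and 1326, 875 and 1893 in IFNko TGFB1 KO. In each of the 3 genes the arrays without Tgfb1 all lay below the arrays with it. The changes were -1.32 ± 0.27 and -1.36 ± 0.27 for Elovl5 (adjusted p = 0.00458 and 0.00367). They were -1.39 ± 0.24 and -1.08 ± 0.24 for Fads1 (adjusted p = 0.00166 and 0.00673), and -1.59 ± 0.31 and -1.26 ± 0.31 for Fads2 (adjusted p = 0.00341 and 0.0113).

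Thrsp, also called Spot14 and a marker of lipogenic tissue, had the largest fall of the 37 genes in the Ifng-deficient background. Its signals were 145, 238 and 237 in wild type and 63.8, 21.2 and 23.1 in TGFB KO, and 437, 681 and 294 in INFko TGFB+ and 48.9, 6.22 and 19.8 in IFNko TGFB1 KO. The fold change was -2.15 ± 0.38 (adjusted p = 0.00192) and -3.77 ± 0.38 (adjusted p = 7.83e-05), and a second probe set of the gene gave -2.05 and -1.75. Me1, the malic enzyme that supplies NADPH, had signals of 683, 642 and 504 in wild type and 203, 279 and 187 in TGFB KO, and 569, 626 and 438 in INFko TGFB+ and 242, 235 and 260 in IFNko TGFB1 KO. It changed without overlap by -1.41 ± 0.20 (adjusted p = 0.000499) and -1.12 ± 0.20 (adjusted p = 0.00229).

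Pnpla3, a lipid droplet protein induced by lipogenic signals, was dim, with signals of 80.9, 75.9 and 82.2 in wild type and 15.6, 23.7 and 17 in TGFB KO, and 64.8, 82.7 and 107 in INFko TGFB+ and 104, 3.83 and 19.3 in IFNko TGFB1 KO. The first IFNko TGFB1 KO array lay among the INFko TGFB+ arrays. The changes of -1.49 ± 0.42 (adjusted p = 0.0234) and -1.34 ± 0.42 (adjusted p = 0.0351) were each lost without any 1 of 5 arrays (adjusted p 0.0541 to 0.0759 and 0.055 to 0.115), TGFB KO 2 and IFNko TGFB1 KO 1 being the exceptions. With a pseudocount of 1 they were also lost (0.0709 and 0.0628), and the second was lost with the deposited scaling, no filter or only the groups compared (0.0521 to 0.118).

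Acss2, the cytosolic enzyme that makes acetyl-CoA from acetate, passed the test in 1 background. Its signals were 165, 136 and 238 in wild type and 158, 184 and 190 in TGFB KO, and 271, 310 and 284 in INFko TGFB+ and 82.2, 105 and 125 in IFNko TGFB1 KO. Wild type and TGFB KO overlapped (-0.07 ± 0.25, adjusted p = 0.882), and IFNko TGFB1 KO lay below INFko TGFB+ (-1.58 ± 0.25, adjusted p = 0.00113). A second probe set of the gene, not tested, gave -0.825 and -1.893, so the probe sets differ on a fall in TGFB KO. Acly, the ATP citrate lyase that feeds both branches, did not pass the test, at 0.37 ± 0.20 and 0.21 ± 0.20, and neither did Gpam, the first enzyme of glycerolipid synthesis, at -0.11 ± 0.18 and -0.52 ± 0.18. The second adjusted p of Gpam was 0.0519, and the gene fell there with either other scaling, a pseudocount of 64, the 60th percentile filter, the mean of its probe sets, only the groups compared or a variance trend (0.0132 to 0.0485).

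The 2 genes of this branch that rose make long and monounsaturated fatty acids. Elovl6, which lengthens palmitate, rose in both comparisons (0.67 ± 0.20, adjusted p = 0.0304, and 0.61 ± 0.20, adjusted p = 0.0433), from 58.1 to 72.3 in wild type to 87.9 to 135 in TGFB KO and from 47.3 to 62.6 in INFko TGFB+ to 76.5 to 141. Its other probe sets differ in sign, the mean over them gave 0.31 (adjusted p = 0.154) for the first comparison, and single arrays ended both calls (wild type 2 or 3 or TGFB KO 1 or 2, adjusted p 0.0723 to 0.108, and any INFko TGFB+ array or IFNko TGFB1 KO 1 or 2, 0.0796 to 0.151). With no filter both calls were lost as well (0.0552 and 0.0761), and the second was lost with median centring, a pseudocount of 64, only the groups compared, array weights or a variance trend (0.0627 to 0.117). Scd1, the stearoyl-CoA desaturase, had signals of 119, 86.1 and 240 in wild type and 209, 123 and 183 in TGFB KO, and 186, 220 and 232 in INFko TGFB+ and 411, 466 and 521 in IFNko TGFB1 KO. Its arrays labelled IFNko TGFB1 KO lay above all 9 others. The change was 0.20 ± 0.29 (adjusted p = 0.678) in TGFB KO and 1.05 ± 0.29 (adjusted p = 0.0203) against INFko TGFB+, and a second probe set gave 0.76 and 0.30. The second call was lost without INFko TGFB+ 1 or 2 or IFNko TGFB1 KO 3 (adjusted p 0.0518 to 0.0748), with median centring (0.102) and with the mean of both probe sets (0.0696).

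The list allows the sterol branch to be set beside the fatty acid branch. In TGFB KO, 7 of 18 sterol genes and 8 of 13 fatty acid genes fell, against 11.9% of all genes, with median fold changes of -0.65 and -1.20. In IFNko TGFB1 KO against INFko TGFB+, 8 of 18 and 9 of 13 fell, against 13.1% of all genes, with medians of -0.75 and -1.08. The median standard deviation (log2) of the sterol and fatty acid genes was 0.393 and 0.235 among wild type arrays and 0.292 and 0.261 in TGFB KO. It was 0.199 and 0.138 in INFko TGFB+ and 0.337 and 0.388 in IFNko TGFB1 KO. Whether the spread bears on the counts was not tested. The median over the sterol genes, as a log2 difference from the wild type mean, was -0.91, -0.75 and -0.32 on the 3 TGFB KO arrays, and -0.11, -0.16 and 0.33 on the wild type arrays. Over the fatty acid genes it was -1.07, -1.001 and -1.24 against -0.09, 0.04 and 0.06. On the IFNko TGFB1 KO arrays the sterol median was -0.70, -0.40 and -0.70 and the fatty acid median -0.60, -1.18 and -0.79, so that the first array had the branches in the other order. The difference between the branches was not tested.

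**Figure D4:**
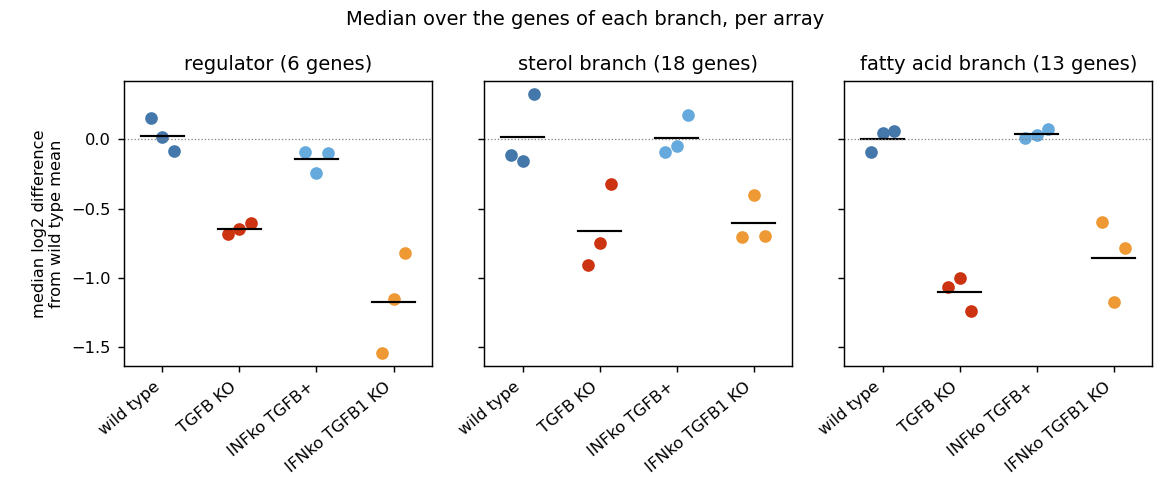
Median log2 difference from the wild type mean over the genes of each branch (vertical axis) on each array, by group, with lines at the group means. The fatty acid medians of TGFB KO lie between -1.24 and -1.001 and its sterol medians between -0.91 and -0.32, while the INFko TGFB+ arrays lie between -0.09 and 0.17 in both branches.

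The design also asks whether the loss of Ifng alters the effect of losing Tgfb1. The difference of the 2 effects passed the test for 0 of 37 genes (limma), where 0.627% of all genes were lower and 0.243% higher (0.870% in either direction). An unadjusted p under 0.05 was found for 5 of the 37, and for 1510 of all 12760 genes. The smallest adjusted p was that of Acss2, whose effect was lower by 1.51 (SE 0.35, log2) in the Ifng-deficient background (adjusted p = 0.0846), at 0.0383 with a pseudocount of 64 and 0.0369 without IFNko TGFB1 KO 3. The other 4 were Sqle (-1.54), Thrsp (-1.62), Mvk (-0.59) and Stard4 (0.67). Other probe sets above the filter gave -1.07 for Acss2, 0.30 for Thrsp, 0.33 for Mvk, and 0.17 and 0.07 for Stard4. With median centring the calls over all genes moved from 80 lower of 111 to 101 of 110.

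Compared directly, the arrays labelled IFNko TGFB1 KO had 1 gene lower and 1 higher than TGFB KO, where 2.82% of all genes were lower and 2.54% higher (5.36% in either direction). Sqle was lower (-1.55 ± 0.32, adjusted p = 0.0169), a call lost without TGFB KO 2 or 3 (adjusted p 0.0569 and 0.057), with only the groups compared (0.0904) or with array weights (0.0508). Scd1 was higher (1.42 ± 0.29, adjusted p = 0.0169), lost without TGFB KO 2 (adjusted p = 0.0709), with median centring (0.0794) or with the mean of both probe sets (0.0949), and its second probe set gave 0.21. Srebf1 passed the test without IFNko TGFB1 KO 2 (1.05, adjusted p = 0.0156) and not with all arrays (0.66 ± 0.29, adjusted p = 0.222). This comparison shares its arrays with those against the controls. Over all genes it gave 684 calls, 360 of them lower, and 203 when the fit held the 2 groups alone, and 388 of 488 calls were lower with median centring.

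INFko TGFB+ and wild type differed in 0 of 37 genes and in 0 of 12760 genes (0%) by limma. At an unadjusted p under 0.05 there were 2 members, Thrsp (1.04) and Acss2 (0.63), both higher in INFko TGFB+, and 650 of all genes. A second probe set gave 0.72 for Thrsp and -0.10 for Acss2. The smallest adjusted p among the members was 0.91.

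Genes around the pathway, from lists of related steps, moved in both directions, and their counts are to be read beside the shares of all genes, 11.9% lower and 12.2% higher in TGFB KO and 13.1% lower and 12.7% higher in the second comparison. Of 8 genes of SREBP processing, 2 fell in TGFB KO and 1 in IFNko TGFB1 KO against INFko TGFB+. They were Pgrmc1, a sterol-binding membrane protein (-0.81 ± 0.27 and -1.02 ± 0.27, adjusted p = 0.0472 and 0.0159), and Mbtps1, the first protease to cut SREBP (-0.59 ± 0.15, adjusted p = 0.0161). Of 7 genes listed under the isoprenoid side branches, Pdss2, a ubiquinone side chain enzyme, fell in both (-1.20 ± 0.26 and -0.78 ± 0.26). Lbr, which that list also holds although it is a sterol reductase (of the nuclear membrane), rose in the second (1.00 ± 0.21, adjusted p = 0.00526).

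Of 8 genes of the sterol-sensing nuclear receptor LXR and sterol efflux, 3 fell and 1 rose in TGFB KO, and 3 fell and 2 rose in the second comparison. Abcg5 and Abcg8, which together export sterol into bile, fell by 1.93 (SE 0.41) and 1.52 (SE 0.34) in TGFB KO and by 1.81 (SE 0.41) and 1.83 (SE 0.34) in the second comparison on the log2 scale. Lpcat3, a phospholipid remodelling enzyme, fell in both (-0.61 ± 0.16 and -0.54 ± 0.16). Abcg1, an exporter found in macrophages as well as liver, rose in both (2.09 ± 0.22 and 1.73 ± 0.22, adjusted p = 6.37e-05 and 0.000327).

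Of 8 genes of carbohydrate and NADPH supply, 3 fell and 2 rose in TGFB KO, and 2 fell and 3 rose in the second comparison. Khk, the fructose kinase, fell in both (-1.21 ± 0.33 and -1.75 ± 0.33), and Pklr, the liver pyruvate kinase, fell in the first (-1.46 ± 0.41). Pgd, of the pentose phosphate pathway, rose in both (0.86 ± 0.18 and 0.99 ± 0.18).

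Of 10 other elongases and desaturases, 2 fell and 3 rose in each comparison. Scd2, the desaturase of many other tissues, rose in both comparisons (1.86 ± 0.19 and 1.47 ± 0.19). Elovl1 rose in both (1.00 ± 0.18 and 0.64 ± 0.18) and Elovl2 fell in both (-1.05 ± 0.23 and -1.005 ± 0.23). Of 13 genes of triglyceride assembly, 3 fell and 1 rose in each. Dgat2, which makes triglyceride (-1.11 ± 0.27 and -1.47 ± 0.27), Agpat2 (-1.07 ± 0.23 and -0.88 ± 0.23) and the lipid droplet protein Cideb (-1.06 ± 0.28 and -1.17 ± 0.28) fell in both comparisons. All the named changes passed the test (limma, adjusted p under 0.05).

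Markers of other cells moved strongly with the loss of Tgfb1. All 11 macrophage markers rose in both comparisons, and their summed signal was 7353 to 9356 in wild type, 46353 to 50549 in TGFB KO, 7309 to 7390 in INFko TGFB+ and 32284 to 44976 in IFNko TGFB1 KO. All 8 T cell markers rose in both, from sums of 150 to 167 and 101 to 199 to sums of 803 to 928 and 2123 to 3419. The summed signal of 13 hepatocyte markers was 237510 to 243290 in wild type and 165799 to 206812 in TGFB KO, and 207584 to 255243 in INFko TGFB+ and 120094 to 194772 in IFNko TGFB1 KO.

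After normalization 1 of the 13 hepatocyte markers fell in TGFB KO, with a median fold change of -0.002, and 5 fell in the second comparison, with a median of -0.23. Several of these markers are among the brightest probe sets, whose values quantile normalization sets nearly equal on all arrays. Apoa1, the main protein of high-density lipoprotein, had a fold change of 0 while its deposited signal was 35827 to 40503 in wild type and 24657 to 26963 in TGFB KO. With the deposited scaling and no quantile step, 2 and 6 of the 13 fell, with medians of -0.35 and -0.38, and the members had medians of -0.81 and -0.81. Of the adipocyte markers, 7 of 9 had a probe set and 4 were tested. Fabp4, also found in macrophages, rose in both comparisons (1.98 ± 0.15 and 1.59 ± 0.15) and Car3 fell in both (-2.88 ± 0.84 and -3.56 ± 0.84). Car3 signals were 1997 to 11227 in wild type and 441 to 1082 in TGFB KO, and 9749 to 14394 in INFko TGFB+ and 286 to 3287 in IFNko TGFB1 KO. The fat cell hormones Adipoq and Lep stayed far below, at 2.76 to 40.5 and 0.755 to 18.3 over all arrays. Which cells gave the Car3 signal was not tested. Of the other lists, 4 and 5 of 7 neutrophil markers rose, 0 of 4 cholangiocyte markers changed in either comparison, and 2 of 6 endothelial markers rose in each with 1 lower in the first. Of 7 stellate cell markers 2 fell in the first comparison and 1 rose in the second, and 1 of 4 erythroid markers rose in the first. The part of these cells in the falls of the lipid genes was not tested.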

How the data were processed

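Total RNA of whole liver was hybridised to 12 oligonucleotide arrays, 3 per group. The labels give Trizol extraction and biotin labelling with a one-cycle protocol. The authors deposited a linear signal intensity per probe set, and the software that made it is not given in the sources used here. Each array had the same 2%-trimmed mean of 150, so the deposited signals were already scaled. The number of arrays limits the precision. Groups come from the sample labels.

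Signals were changed to log2(signal + 16) and quantile normalized. Control probe sets were dropped, probe sets below the 40th percentile of the mean (log2 level 5.25) were left out, and the brightest probe set with a single symbol stood for each gene, which gave 12760 genes. GEO's platform annotation named 34958 probe sets with 1 symbol, 932 with several and 9211 with none. Of those with 1 symbol, 34754 were matched by gene ID to RefSeq GRCm38.p6 and took its symbol. One model of the 4 group means was fitted with limma 3.58.1 in R 4.3.3 (lmFit, eBayes) and 5 contrasts were adjusted by Benjamini-Hochberg over all genes, with 0.05 as the threshold. The fit was tested on simulated data.

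The 38 genes, their branches and the 15 lists were chosen with earlier results of these data known. Signals are printed for the 6 regulators, for genes past the threshold with a log2 change of at least 1 in one of the first 2 comparisons or past it in another, and for genes named for their spread, which were chosen after their values were seen. Of each list up to 4 genes with the smallest p were named. The design text gives separate mice for the groups it describes, and no source used here does so for INFko TGFB+. If any arrays share a source, the p-values measure a technical spread. The scaling, pseudocount (1 or 64), filter, choice of probe set, groups fitted, array weights, variance trend, replicate block and each array in turn were varied.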

Additional observations from a re-analysis of the deposited data

How the results depend on the processing

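No fold change of a called gene changed sign under the 11 alternatives or with any of the 12 arrays left out. Of 44 calls over the genes and comparisons, 29 held under each of the 11 alternatives, 29 with each array left out and 28 under both. The genes lower in TGFB KO numbered 15 to 17 with an array left out (18 with all), and those higher 0 to 1. In IFNko TGFB1 KO against INFko TGFB+ they numbered 15 to 19 (20 with all) and 0 to 1. Of all 12760 genes, 1028 to 1205 were then lower in the first comparison (1524 with all arrays) and 1089 to 1844 in the second (1673 with all arrays). Calls in either direction numbered 2200 to 2582 (3077 with all) and 2262 to 3529 (3291 with all). In the sterol branch 5 to 7 were lower and 0 to 1 higher in the first comparison and 6 to 7 and 0 in the second, and in the fatty acid branch 7 to 8 and 0 to 1, and 6 to 9 and 0 to 1. The difference of effects gave 0 to 1 lower and 0 higher, IFNko TGFB1 KO against TGFB KO 0 to 2 lower and 0 to 3 higher, and INFko TGFB+ against wild type 0 in both directions. Over all genes, these comparisons gave 46 to 160, 326 to 730 and 0 to 2 calls with an array left out.

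Under the 11 alternatives 15 to 19 genes were lower in TGFB KO and 16 to 22 in the second comparison. Over all genes, 892 to 1736 were lower in the first and 1303 to 1863 in the second, with 9970 to 18193 genes tested. In TGFB KO 1 rose, and 0 of the fatty acid branch, with no filter or the mean of all probe sets, against 2 and 1. In the second comparison 0 rose with median centring and 1 with a pseudocount of 64, no filter, the mean of all probe sets, only the groups compared, array weights or a variance trend, against 2, all of the fatty acid branch. In the difference of effects 1 was lower with a pseudocount of 64. In IFNko TGFB1 KO against TGFB KO 2 were lower with the 60th percentile filter or the trend and 0 with only the groups compared or array weights. There, 2 were higher with the deposited scaling, that filter or the trend and 0 with median centring or the mean of all probe sets. The cause was not tested. The difference of effects gave 46 to 211 calls over all genes, against 111, and IFNko TGFB1 KO against TGFB KO 203 to 942, against 684.

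Same-numbered arrays correlated at -0.077 to 0.343 in their deviations, highest for wild type 3 with TGFB KO 3. In 2 of 12 cases an array correlated best with its own number. With 3 arrays per group this cannot decide whether the replicate numbers pair the arrays. For the 18 sterol genes, array 3 was the highest of its group in 13 (wild type), 10 (TGFB KO) and 17 (INFko TGFB+). In IFNko TGFB1 KO it was the highest for 7. Whether these counts reflect pairing was not tested. With the replicate number as a block 18 and 20 genes were lower in the first 2 comparisons, 6 of them in the fatty acid branch of the second, but not the same genes. The block lost Sc5d in the first comparison (adjusted p = 0.0529) and Acaca, Fasn and Pnpla3 in the second (0.0644, 0.0504 and 0.0504), and gained Cyp51 in the first (0.0442) and Insig1, Fdps and Msmo1 in the second (0.0243, 0.0112 and 0.0194). Pnpla3 and Thrsp had signals down to 3.83 and 6.22 in the groups without Tgfb1, below the pseudocount of 16, so their fold changes depend on it.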
